A study of Mus musculus with 9 samples.

Results

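The genes described here are the non-fibrillar collagens, the collagens that do not build the banded fibrils of scar and tendon. They were taken by gene symbol from the count table, which holds 33 of them among 24964 symbols. The rule used symbols alone, but it was set with earlier results of these data known. The 33 genes comprise the network collagens (types IV, VIII and X), the beaded-filament type VI, the anchoring type VII, the fibril-associated FACIT types, 4 transmembrane collagens, the multiplexins XV and XVIII, and types XXVI and XXVIII. A filter on low counts kept 28 of the 33 among 14347 genes tested, and the other 5 are given below by their counts.

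RNA was sequenced in bulk from hearts of 9 male C57BL/6JR mice aged 8 weeks at inclusion, in 3 groups of 3. In the myocardial infarction (MI) groups a suture was tied around the left anterior descending (LAD) coronary artery, and tissue was taken at 7 d or at 28 d. Sham mice had the same operation without the tie. No group carried a transgene or a drug, the tissue is named only as heart, and neither the region sampled nor the time at which sham hearts were taken is given in the sources used here.

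Collagen IV is the sheet-forming collagen of basement membranes, which in the heart surround each cardiomyocyte and line the capillaries. Collagen VI forms beaded filaments between the basement membrane and the interstitial matrix, and FACIT collagens sit on the surface of collagen I and III fibrils. The multiplexins XV and XVIII bridge basement membrane and matrix, and cleavage of collagen XVIII releases the fragment endostatin. Chains are encoded by separate genes, and the sets in which they combine can vary. Genes for the chains of a collagen type are compared with each other below, but ratios of RNA counts do not give the make-up of the protein.

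Totals ranged from 12351525 to 13629120 counts in sham libraries, from 18355720 to 19238101 at 7 d and from 15300344 to 15770389 at 28 d. Cardiomyocyte markers were present in every library, and the summed level of 8 cardiomyocyte genes was 90207 to 93332 counts per 1e6 counts (CPM) in sham, 18130 to 23333 at 7 d and 37361 to 60473 at 28 d. The summed level of 8 fibroblast genes, Col1a1 and Col1a2 among them, was 1767 to 1795, 24263 to 31726 and 4640 to 8812 CPM in the same order. In bulk tissue, fewer cells of a type and less RNA per cell cannot be told apart. Sham libraries were much more alike than infarcted ones. The chi-square over its degrees of freedom, a measure of spread beyond counting error, was 1.67 to 1.80 between sham libraries. It was 18.8 to 29.3 between 7 d and 31.4 to 71.2 between 28 d libraries. Whether the sham libraries carry the full spread among 3 hearts was not tested, and an alternative below summed them to 1 library. At 28 d, replicate 3 stood apart, with a summed level of 6 mesothelial markers of 783 CPM against 113 and 135 in the other 2 hearts, and of 6 Schwann cell markers of 252 against 20.2 and 26.2. Below, CPM are relative to totals scaled by the trimmed mean of M-values (TMM), and a gene "rose" or "fell" where the Benjamini-Hochberg adjusted p of edgeR's quasi-likelihood test over all 14347 genes was under 0.05. Fold changes and log2 changes ± standard error (SE) are those of that fit. The p-values rest on the spread among hearts within groups, pooled over all 3 groups and with information shared across genes. This is not the spread of the 2 compared groups alone. For Col4a1 at 7 d against sham the SE was 0.142, and 0.062 with only the libraries compared. Both MI groups were set against the same 3 sham libraries.

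Most non-fibrillar collagens were higher 7 d after infarction, and most of those were lower again at 28 d. At 7 d against sham, 20 of the 28 genes rose, 3 fell (Col4a3, Col4a4 and Col6a6) and 5 did not pass. Over all genes 74.4% passed, 39% higher and 35.4% lower. The median log2 change was 1.89 for the collagens and 0.06 for all genes. At 28 d against sham, 18 rose, 1 fell (Col26a1) and 9 did not pass, with 55.1% of all genes passing (29.5% higher, 25.6% lower). The median was 1.10 against 0.05. From 7 d to 28 d, 4 rose (Col4a3, Col4a4, Col6a6 and Col22a1) and 17 fell, where 55.2% of all genes passed (29.1% higher, 26.1% lower), with medians of −1.07 and 0.03. The largest class was the 12 genes above sham at both times and lower at 28 d than at 7 d: Col6a1, Col6a2, Col6a3, Col7a1, Col8a1, Col8a2, Col9a2, Col12a1, Col14a1, Col15a1, Col16a1 and Col18a1. Scaling by library size alone moved the median of all genes at 7 d to 0.40 and at 28 d to 0.30, with 7410 genes higher and 3587 lower at 7 d and 6479 and 2278 at 28 d. From 7 d to 28 d that scaling gave 3458 and 4136. Under it 21 collagens were higher and 2 lower at 7 d, and 19 and 1 at 28 d.

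**Figure D1:**
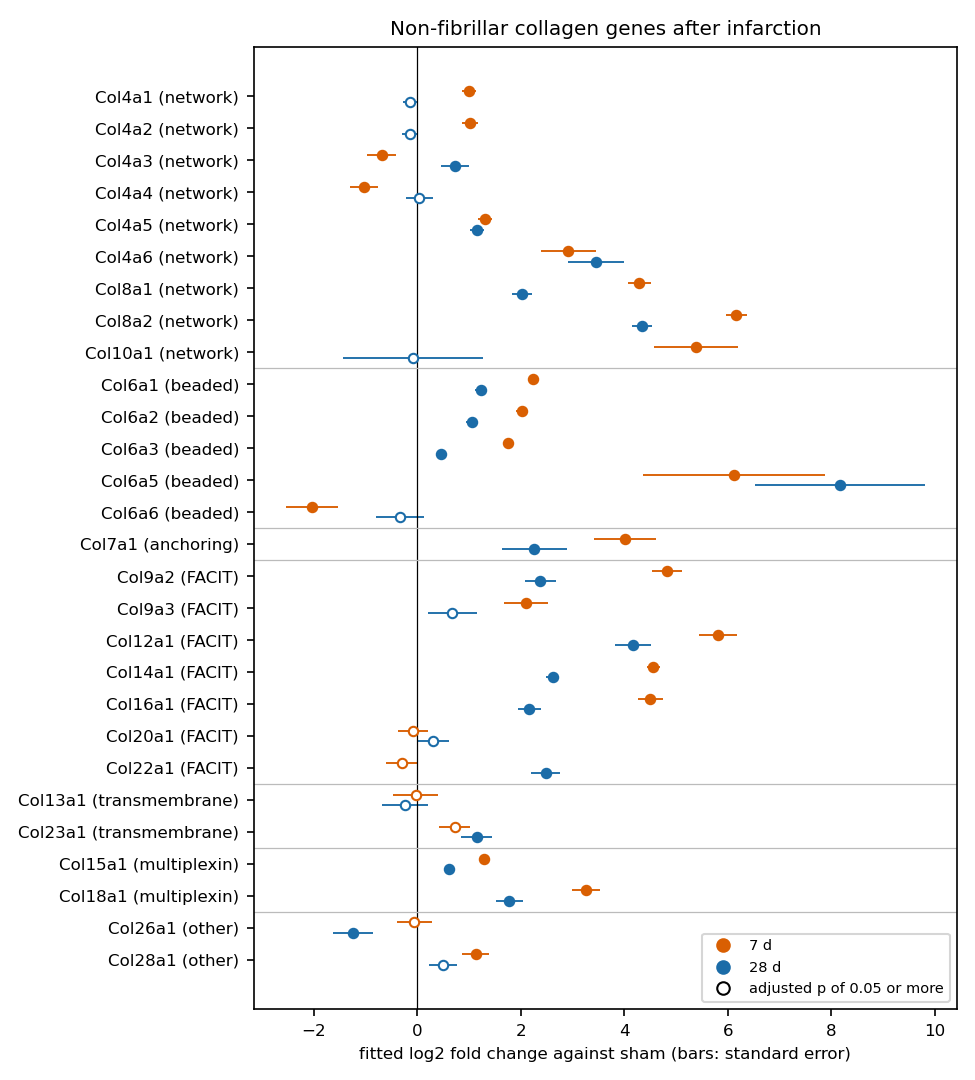
Log2 fold change of each of the 28 tested non-fibrillar collagens (rows, by class) at 7 d and at 28 d against sham; bars are SE and open symbols have an adjusted p of 0.05 or more. Col8a2, Col12a1 and Col6a5 lie farthest to the right at 7 d, and most 28 d points lie to the left of their 7 d points.

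Among the network collagens, the paired genes of the main basement membrane chains, Col4a1 and Col4a2, were about 2-fold higher at 7 d, and at 28 d the hearts lay on both sides of the sham values. Col4a1 (chr8:11198423-11312826, minus strand, GRCm38) measured 1325, 1317 and 1283 CPM in sham hearts, 2551, 2613 and 2698 at 7 d, and 1278, 1389 and 928 at 28 d. The 7 d hearts were above all others, while 28 d replicate 2 was above and the other 28 d hearts were below every sham heart. Col4a1 rose 2.0-fold at 7 d (log2 1.00 ± 0.14, edgeR adjusted p = 0.000126) and fell 2.19-fold from 7 d to 28 d (adjusted p = 0.00015). The 28 d difference from sham, −0.13 ± 0.14, did not pass (adjusted p = 0.468) and was 0.11 with scaling by library size alone. Col4a2 (chr8:11312805-11449287, plus strand), the neighbour read in the opposite direction, measured 982, 959 and 970 CPM in sham, 1890, 2015 and 1984 at 7 d and 930, 1053 and 663 at 28 d. The hearts fell in the same places as for Col4a1, with 28 d replicate 2 above and replicates 1 and 3 below every sham heart. Col4a2 rose 2.02-fold (adjusted p = 0.000187) and then fell 2.23-fold (adjusted p = 0.000196). Its 28 d difference from sham was −0.14 ± 0.15 (adjusted p = 0.462) and 0.10 under that scaling. The 2 spans overlap by 22 exonic bases. Over the same hearts the summed level of 10 endothelial markers was 2228 to 2331 CPM in sham, 1092 to 1275 at 7 d and 747 to 1438 at 28 d. At 7 d 6 of the 10 fell and none rose, where 35.4% of all genes fell and 39% rose. The part of this in the collagen IV values was not tested.

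Col4a3 and Col4a4, which with Col4a5 build the mature network of kidney and lung basement membranes, moved the other way at far lower levels. Col4a4 (chr1:82448423-82586849, minus strand) measured 15.9, 14.2 and 15 CPM in sham, 5.10, 9.06 and 7.94 at 7 d, and 16.7, 19.8 and 10 at 28 d. All 7 d hearts lay below all others. It fell 2.04-fold at 7 d (log2 −1.03 ± 0.26, edgeR adjusted p = 0.00553; 0.056 with the sham libraries summed to 1, the highest of 19 alternatives from 0.000292) and rose 2.10-fold from 7 d to 28 d (adjusted p = 0.00654). Col4a3 (chr1:82586921-82722059, plus strand) measured 13.6, 11.8 and 12.6 CPM in sham, 5.39, 10.8 and 7.41 at 7 d, and 25.4, 23.9 and 14.1 at 28 d. The 3 groups did not overlap. It rose 2.68-fold from 7 d to 28 d (log2 1.42 ± 0.27, adjusted p = 0.00164). Its fall at 7 d (−0.68 ± 0.28, adjusted p = 0.0453) and rise at 28 d against sham (0.74 ± 0.27, adjusted p = 0.041) were close to the threshold. The 7 d fall did not pass in 9 of 19 alternative analyses and the 28 d rise in 7 of 19, with adjusted p of up to 0.248 and 0.254. Leaving out sham replicate 1, 2 or 3, 7 d replicate 1 or 3, or 28 d replicate 2 ended the 7 d call (adjusted p = 0.053 to 0.143). Leaving out sham replicate 1, 2 or 3, 7 d replicate 3, or 28 d replicate 1 or 2 ended the 28 d call (0.0523 to 0.12). Of the exon bases of Col4a3, 5.65% are shared with a gene on the opposite strand, and the strand setting of the counting is not given in the sources used here.

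Col4a5 and Col4a6, the X-linked chains, were raised at both times. Col4a5 (chrX:141475385-141689234, plus strand) measured 68.2, 60.7 and 69.4 CPM in sham, 145, 198 and 151 at 7 d, and 131, 150 and 162 at 28 d. Every infarcted heart was above every sham heart, and the 7 d and 28 d hearts overlapped. It rose 2.49-fold at 7 d (log2 1.32 ± 0.13, edgeR adjusted p = 1.17e-05) and 2.23-fold at 28 d (1.16 ± 0.13, adjusted p = 0.000145), and the step from 7 d to 28 d was −0.16 ± 0.13 (adjusted p = 0.327). Col4a6 (chrX:141165403-141474076, minus strand) measured 2.36, 2.02 and 3.04 CPM in sham, 15.1, 24.3 and 17.1 at 7 d, and 13.4, 17 and 51.4 at 28 d. Again no infarcted heart reached into the sham range, and 28 d replicate 3 was far above the other 28 d hearts. Col4a6 rose 7.55-fold at 7 d (adjusted p = 0.000688) and 11.0-fold at 28 d (adjusted p = 0.000604). Without that library the 28 d rise was 6.11-fold (adjusted p = 4.17e-05, range over 19 alternatives 6.68e-13 to 0.0304). The step from 7 d to 28 d, 0.54 ± 0.44 (adjusted p = 0.318), was −0.30 without it. In that heart the mesothelial and Schwann cell markers were also highest, and their part in its value was not tested.

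**Figure D2:**
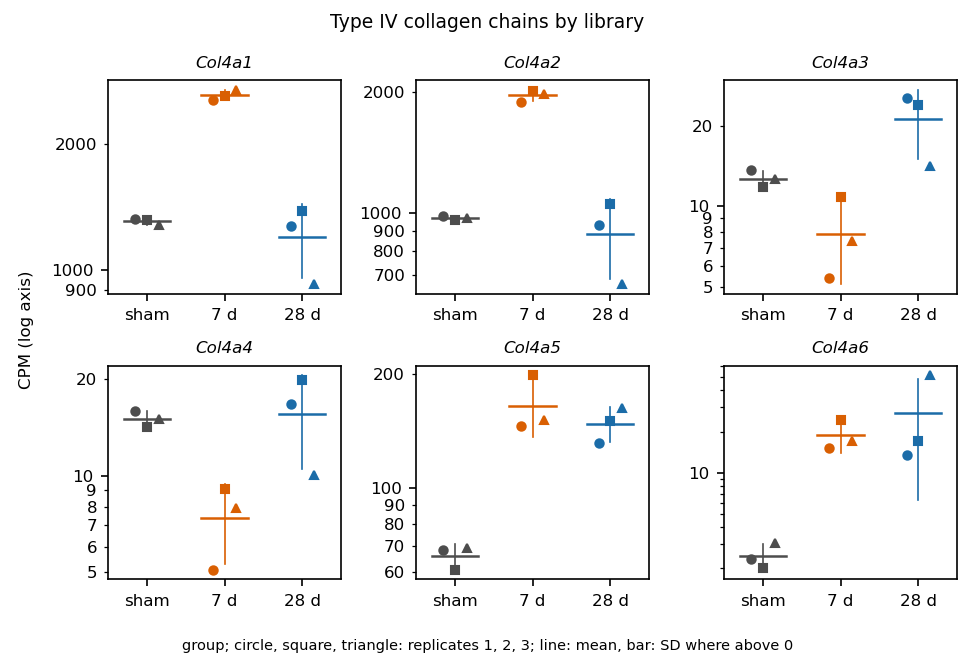
CPM (log axis) of the 6 type IV collagen genes in each library of the sham, 7 d and 28 d groups; symbols mark replicates 1, 2 and 3, lines are means and bars SD. Col4a1 and Col4a2 stand highest at 7 d, Col4a3 and Col4a4 lowest at 7 d, and all infarcted hearts lie above sham for Col4a5 and Col4a6.

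The 6 type IV genes lie as 3 head-to-head pairs, each read outward from a shared stretch of DNA. In RefSeq's spans Col4a1 and Col4a2 overlap by 85 bases and Col4a3 and Col4a4 by 114, while Col4a5 and Col4a6 are separated by 1274 bases. The stretches directly upstream of the 2 X-linked genes are shown because both genes were above sham at 28 d, whereas Col4a1 and Col4a2 did not pass there. Letters are from RefSeq on GRCm38.p6, 5′ to 3′ on each gene's strand, at chrX:141475169-141475369 (plus) and chrX:141474096-141474326 (minus). The stretches begin 250 bases before the RefSeq start and stop 50 (Col4a5) and 20 (Col4a6) bases before it, where an annotated exon or the gene's own span begins. Capitals mark a CCAAT box, the only match of the motifs searched in the printed letters. The full 250-base window of each gene also holds 1 GC box, in the part left out.
Col4a5: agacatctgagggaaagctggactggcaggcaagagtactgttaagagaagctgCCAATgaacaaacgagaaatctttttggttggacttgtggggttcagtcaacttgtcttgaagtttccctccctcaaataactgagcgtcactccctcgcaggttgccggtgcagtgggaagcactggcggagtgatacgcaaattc
Col4a6: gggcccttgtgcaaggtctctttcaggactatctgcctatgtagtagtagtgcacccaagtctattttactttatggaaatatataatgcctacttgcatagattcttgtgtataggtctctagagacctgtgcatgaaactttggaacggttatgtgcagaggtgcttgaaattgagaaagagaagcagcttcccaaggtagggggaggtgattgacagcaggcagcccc

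Collagen VIII, a short-chain network collagen of blood vessel walls and of the cornea, was among the most strongly raised. Col8a1 (chr16:57624258-57754737, minus strand) measured 48.9, 48.1 and 51.9 CPM in sham, 1016, 1094 and 815 at 7 d, and 207, 252 and 145 at 28 d. Col8a2 (chr4:126286793-126314330, plus strand) measured 2.88, 3.31 and 3.55 CPM in sham, 245, 268 and 190 at 7 d, and 60.9, 79.3 and 57.7 at 28 d. In both genes the 3 groups were fully separate, in the order sham, 28 d, 7 d. Col8a1 rose 19.6-fold at 7 d (log2 4.30 ± 0.21, edgeR adjusted p = 2e-07) and 4.06-fold at 28 d (adjusted p = 5.94e-05), and fell 4.84-fold between the times (adjusted p = 1.71e-05). Col8a2 rose 71.9-fold at 7 d (log2 6.17 ± 0.20, adjusted p = 4.27e-08) and 20.3-fold at 28 d (adjusted p = 1.16e-06), and then fell 3.55-fold from 7 d to 28 d (adjusted p = 1.57e-05). The 71.9-fold change of Col8a2 was the largest fitted rise at 7 d among the 28 genes.

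The ratio of the 2 type VIII chains shifted. Col8a1 counts were 14.5 to 17 times those of Col8a2 in sham, 4.09 to 4.29 times at 7 d and 2.51 to 3.41 times at 28 d. The groups did not overlap, and each comparison reached p = 0.1 in an exact two-sided permutation test, the smallest p that 3 against 3 allows (0.136 after adjustment over 15 ratio tests). The 250 bases before the RefSeq start of Col8a1, and for Col8a2 the 249 of the 250 that lie outside the gene's annotated span, are shown because these genes were the only members whose windows held at least 4 GC boxes. A GC box (GGGCGG, or CCGCCC on the other strand, in capitals) is a short motif bound by Sp1-type factors. Windows with at least 4 made up 4.09% of the 32851 in the RefSeq table. The stretches lie at chr16:57754738-57754987 (minus) and chr4:126286544-126286792 (plus) on GRCm38.p6. In Col8a2 the last 2 boxes overlap and are capitalised as a single run.
Col8a1: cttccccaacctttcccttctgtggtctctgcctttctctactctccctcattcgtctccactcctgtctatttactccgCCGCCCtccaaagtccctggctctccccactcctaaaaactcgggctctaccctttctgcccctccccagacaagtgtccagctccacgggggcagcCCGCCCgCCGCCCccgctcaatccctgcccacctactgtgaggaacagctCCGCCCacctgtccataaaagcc
Col8a2: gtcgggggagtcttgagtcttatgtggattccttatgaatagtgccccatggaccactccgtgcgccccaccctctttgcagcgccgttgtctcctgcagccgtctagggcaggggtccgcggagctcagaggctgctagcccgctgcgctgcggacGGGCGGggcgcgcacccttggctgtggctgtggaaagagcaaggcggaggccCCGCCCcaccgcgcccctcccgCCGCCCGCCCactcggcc

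RefSeq windows were found for 27 of the 33 genes, with 30 starts in all. In the 250 bases before the start, on either strand, a GC box was present in 16 of the 30 windows (53.3%, against 32.7% of all windows) and CCAAT in 10 (33.3%, against 33.8%). TATAAA was present in 3 (10%, against 12.4%), the AP-1 motif TGANTCA in 1 (3.33%, against 6.75%), the TEAD motif GGAATG in 3 (10%, against 12.6%) and the CArG box in 1 (3.33%, against 1.47%). The median GC content was 58.2% in these windows and 52.4% in all. A match describes the letters only.

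Collagen X, otherwise a product of hypertrophic cartilage, was counted 3, 0 and 0 times in the sham libraries, 105, 93 and 47 times at 7 d and 1, 3 and 0 times at 28 d. The 245 counts at 7 d were, relative to scaled totals, 45.2 times the 3 sham counts (95% counting interval 15.3 to 221, counting error only). Col10a1 rose at 7 d (edgeR adjusted p = 0.000193) and fell from 7 d to 28 d (log2 −5.46 ± 0.76, adjusted p = 0.000264), and the 28 d counts did not differ detectably from sham (adjusted p = 0.965). All sham counts came from replicate 1, and without it the fitted 7 d change moved from 5.38 to 9.05. The fall between the times was 102-fold without 28 d replicate 2 and 29.3-fold without 28 d replicate 3, against 43.9-fold with all libraries. The 6 cartilage markers summed to 14.2 to 18.8 CPM in sham, 613 to 1019 at 7 d and 386 to 811 at 28 d. Without Comp, which supplied most of these sums after infarction, the other 5 summed to 4.32 to 5.83, 78.8 to 182 and 10.8 to 24.3 CPM. At 7 d all 6 rose, where 39% of all genes did. From 7 d to 28 d 4 of the 6 fell, where 26.1% of all genes did. The part of these markers in the Col10a1 counts was not tested.

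The beaded-filament chains Col6a1, Col6a2 and Col6a3, which make the standard type VI molecule, rose at both times and were lower at 28 d than at 7 d. Col6a1 (chr10:76708792-76726168, minus strand) measured 194, 193 and 189 CPM in sham, 910, 884 and 941 at 7 d, and 387, 481 and 481 at 28 d. Col6a2 (chr10:76595762-76623630, minus strand) measured 201, 192 and 196 CPM in sham, 780, 764 and 854 at 7 d, and 367, 463 and 392 at 28 d. Col6a3 (chr1:90765923-90843971, minus strand) measured 108, 106 and 102 CPM in sham, 357, 348 and 360 at 7 d, and 142, 137 and 160 at 28 d. In all 3 genes the groups were fully separate, with sham lowest and 7 d highest. At 7 d Col6a1 rose 4.74-fold (log2 2.25 ± 0.10, edgeR adjusted p = 1.45e-07), Col6a2 4.07-fold (2.03 ± 0.11, adjusted p = 2.69e-07) and Col6a3 3.37-fold (1.75 ± 0.08, adjusted p = 1.6e-07). At 28 d the rises were 2.34-fold (adjusted p = 2.69e-05), 2.07-fold (adjusted p = 6.79e-05) and 1.39-fold (0.47 ± 0.08, adjusted p = 0.00109). The falls between the times were 2.03-fold, 1.96-fold and 2.43-fold (adjusted p = 3.82e-05, 5.74e-05 and 3.3e-06). The 28 d rise of Col6a3 did not pass with the 3 sham libraries summed to 1 (adjusted p = 0.0612, range over 19 alternatives 1.32e-06 to 0.0612).

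Col6a3 took a smaller place beside its partner chain in each later group. Counts of Col6a3 were 0.523 to 0.553 times those of Col6a2 in sham, 0.422 to 0.458 times at 7 d and 0.296 to 0.409 times at 28 d. No groups overlapped (exact two-sided permutation p = 0.1 for each, 0.136 adjusted). Counts of Col6a1 were 0.967 to 1.01 times those of Col6a2 in sham, 1.10 to 1.17 times at 7 d and 1.04 to 1.23 times at 28 d. Both MI groups lay above sham and overlapped each other (exact permutation p = 0.1, 0.1 and 0.7).

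The alternative chains Col6a5 and Col6a6, which can take the place of Col6a3 in the molecule, went in opposite directions at 7 d. Col6a6 (chr9:105687809-105828160, minus strand) measured 13.4, 10.1 and 12.4 CPM in sham, 1.40, 3.27 and 4.09 at 7 d, and 4.65, 6.70 and 17.2 at 28 d. Every 7 d heart was below every other heart, and the 28 d hearts spanned the sham range. It fell 4.10-fold at 7 d (log2 −2.04 ± 0.50, edgeR adjusted p = 0.00435) and rose 3.27-fold from 7 d to 28 d (adjusted p = 0.0154). Against sham the 28 d difference was −0.33 ± 0.47 (adjusted p = 0.576), and without 28 d replicate 3 it was −1.08 and passed (adjusted p = 0.0281, range over 19 alternatives 0.0281 to 0.988). The rise between the times was 0.96 on the log2 scale without that library, and did not pass without 7 d replicate 1 (adjusted p = 0.0519, range 0.000997 to 0.0519).

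Col6a5 (chr9:105856078-105960643, minus strand) was nearly uncounted in sham, at 2, 3 and 1 counts or 0.174, 0.276 and 0.085 CPM. It measured 2.5, 13.3 and 22.5 CPM at 7 d and 14.7, 12 and 131 at 28 d. All infarcted hearts were above sham, and they were widely spread, with 28 d replicate 3 far above the rest. It rose 69.5-fold at 7 d (log2 6.12 ± 1.76, edgeR adjusted p = 0.0101) and 288-fold at 28 d (8.17 ± 1.64, adjusted p = 0.00252). Without 7 d replicate 3 the 7 d rise was 42.9-fold, and without 28 d replicate 3 the 28 d rise was 72.7-fold (adjusted p = 0.000997, range over 19 alternatives 1.5e-09 to 0.0601). With the sham libraries summed to 1 neither rise passed (adjusted p = 0.0788 and 0.0601). The step between the times, 2.05 ± 0.93, did not pass (adjusted p = 0.0878), but did without 28 d replicate 1 (2.48, adjusted p = 0.0478) or 28 d replicate 2 (2.52, adjusted p = 0.0397, range 0.0247 to 0.935). Col6a4 was counted 0, 0 and 0 times in sham, 8, 6 and 10 times at 7 d and 0, 0 and 4 times at 28 d. Relative to scaled totals, the 24 counts at 7 d were 4.43 times a floor of 3 counts over the sham group. That value leaves out the counting error at 7 d and the spread among hearts, and Col6a4 was not tested.

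**Figure D3:**
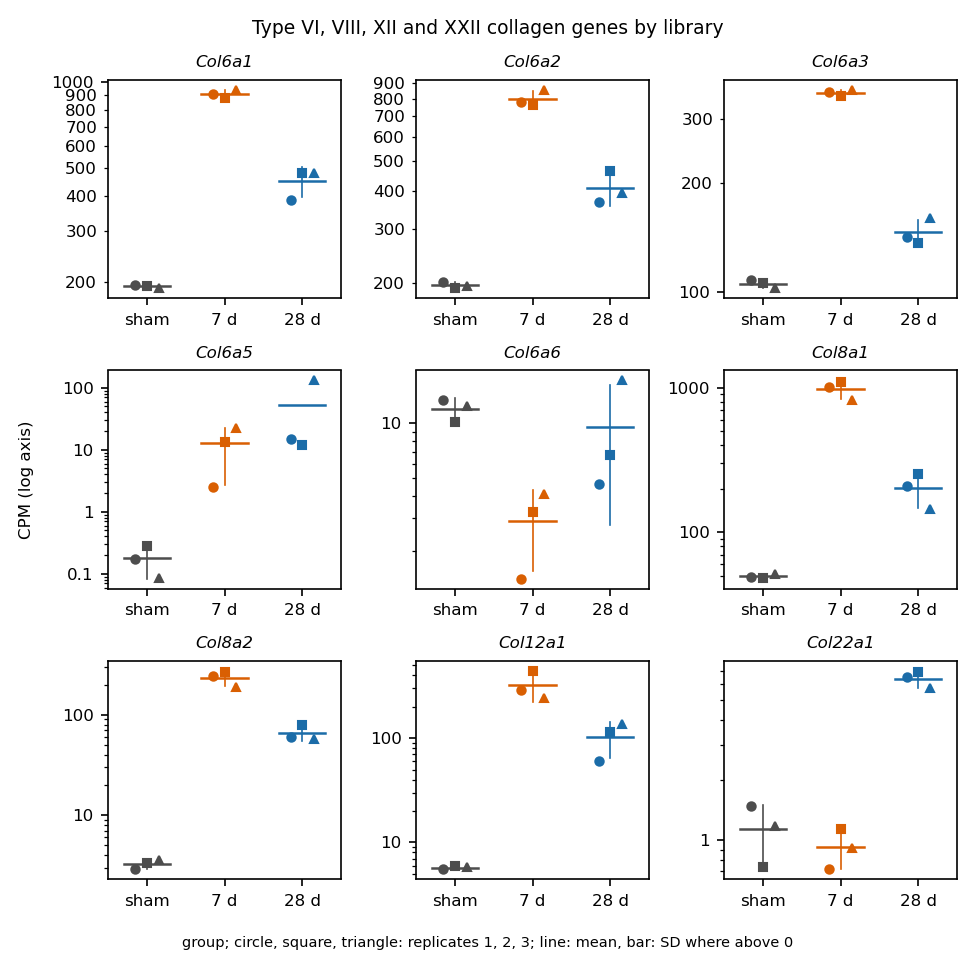
CPM (log axis) in each library for members of types VI, VIII, XII and XXII; symbols mark replicates 1, 2 and 3, lines are means and bars SD (left out where the mean minus the SD is below 0). Col8a2 and Col12a1 step up from single digits in sham to 190 or more at 7 d, Col6a6 is lowest at 7 d, and Col22a1 is higher in the 28 d hearts than in the other groups.

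Collagen VII, which forms the anchoring fibrils under skin epithelium, was low throughout. Col7a1 (chr9:108953586-108984875, plus strand) measured 0.611, 0.920 and 0.845 CPM in sham, 13.3, 16.8 and 8.71 at 7 d, and 1.06, 3.60 and 6.72 at 28 d. The groups did not overlap, and the 28 d hearts ranged from near the sham level to near the 7 d level. It rose 16.2-fold at 7 d (log2 4.02 ± 0.61, edgeR adjusted p = 0.000193) and 4.80-fold at 28 d (adjusted p = 0.0125), and fell 3.38-fold in between (adjusted p = 0.0128). Without 28 d replicate 3 the last 2 values were 2.95-fold and 5.49-fold. The 28 d rise did not pass with the sham libraries summed to 1 (adjusted p = 0.116, range over 19 alternatives 0.000322 to 0.116). The 6 epithelial markers summed to 0.92 to 1.52 CPM in sham, 20.7 to 30.2 at 7 d and 15.1 to 29.7 at 28 d. Krt18 supplied most of these sums after infarction, at 24.9, 16.3 and 18.8 CPM at 7 d and 12.8, 18.2 and 22.5 at 28 d. Epcam, Krt5, Krt14 and Cdh1 were at 0 in at least 1 library, and Epcam and Krt5 did not pass the filter on low counts. The part of the 6 markers in the Col7a1 level was not tested.

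Of the 9 FACIT genes, 7 were tested. At 7 d 5 rose and none of the 7 fell, and the same counts held at 28 d with Col22a1 in the place of Col9a3. Over all genes 39% were higher at 7 d and 29.5% at 28 d. Col12a1 and Col14a1 coat collagen I fibrils in tendon and other load-bearing tissue. Col12a1 (chr9:79598991-79718831, minus strand) measured 5.50, 5.89 and 5.83 CPM in sham, 288, 441 and 243 at 7 d, and 60.2, 113 and 136 at 28 d. Col14a1 (chr15:55307750-55520803, plus strand) measured 35.3, 35.5 and 37.4 CPM in sham, 830, 933 and 799 at 7 d, and 189, 250 and 225 at 28 d. Col16a1 (chr4:130047840-130099283, plus strand), found near fibrils and basement membranes, measured 19.1, 18.9 and 17.4 CPM in sham, 443, 480 and 337 at 7 d, and 71.1, 65.3 and 113 at 28 d. In these genes the 3 groups never overlapped and sham hearts lay close together. Col12a1 rose 56.4-fold at 7 d (log2 5.82 ± 0.37, edgeR adjusted p = 6.82e-07) and 18.0-fold at 28 d (adjusted p = 2.76e-05). Col14a1 rose 23.7-fold (4.57 ± 0.13, adjusted p = 4.27e-08) and 6.14-fold (adjusted p = 1.35e-06). Col16a1 rose 22.7-fold (4.51 ± 0.24, adjusted p = 2.63e-07) and 4.5-fold (adjusted p = 7.41e-05). The falls from 7 d to 28 d were 3.14-fold for Col12a1, 3.86-fold for Col14a1 and 5.05-fold for Col16a1 (adjusted p = 0.00103, 2.42e-06 and 2.31e-05).

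The collagen IX genes, which in cartilage decorate collagen II fibrils, were counted mostly at 7 d. Col9a2 measured 0.611, 0.460 and 1.10 CPM in sham, 23.3, 20.1 and 19.4 at 7 d, and 3.78, 4.78 and 2.96 at 28 d. The groups were again separate, with sham lowest. Col9a2 rose 28.4-fold at 7 d (log2 4.83 ± 0.28, edgeR adjusted p = 4.68e-07) and 5.21-fold at 28 d (adjusted p = 0.000217), and fell 5.45-fold between the times (adjusted p = 2.51e-05). Col9a3 measured 0.436, 0.460 and 0.254 CPM in sham, 2.12, 1.68 and 1.2 at 7 d, and 0.465, 0.434 and 0.927 at 28 d. It rose 4.31-fold at 7 d (adjusted p = 0.00135) and fell 2.69-fold afterwards (adjusted p = 0.00952), or 4.33-fold without the 3 libraries rich in the adipocyte gene Adipoq (7 d replicate 3 and 28 d replicates 1 and 3). Its 28 d difference from sham, 0.68, did not pass (adjusted p = 0.25). Of its exon bases 6.07% are shared with Tcfl5 on the opposite strand. Col9a1 was counted 0 times in the sham libraries, 27, 14 and 5 times at 7 d and 1, 0 and 0 times at 28 d. Relative to scaled totals, the 46 counts at 7 d were 8.48 times a floor of 3 counts over the sham group. That value leaves out the counting error at 7 d and the spread among hearts, and Col9a1 was not tested.

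Collagen XXII, a FACIT of tissue junctions such as the one between muscle and tendon, had its own time course. Col22a1 (chr15:71795795-72034227, minus strand) measured 1.48, 0.736 and 1.18 CPM in sham, 0.722, 1.14 and 0.914 at 7 d, and 6.5, 6.95 and 5.74 at 28 d. The sham and 7 d hearts overlapped, and all 28 d hearts were above them. The 7 d difference was −0.30 ± 0.30 (edgeR adjusted p = 0.383; 0.036 with scaling by library size alone), the 28 d rise against sham was 5.59-fold (2.48 ± 0.27, adjusted p = 0.000118), and the rise from 7 d to 28 d was 6.87-fold (2.78 ± 0.26, adjusted p = 3.15e-05). Among the 28 genes it was the only one that passed at 28 d against both other groups with a rise while not passing at 7 d. Col20a1, at 2.39 to 5.62 CPM, passed in no comparison (adjusted p = 0.807, 0.381 and 0.257), although without 28 d replicate 1 it passed at 28 d against sham (0.59, adjusted p = 0.0362, range over 19 alternatives 0.0362 to 0.889) and against 7 d (0.67, adjusted p = 0.0214, range 0.0214 to 0.695). Col19a1 had 7 counts in all 9 libraries together and was not tested.

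The multiplexins rose at both times. Col15a1 (chr4:47208161-47313167, plus strand), a component of the cardiomyocyte and capillary basement membrane zone, measured 257, 261 and 275 CPM in sham, 672, 658 and 608 at 7 d, and 378, 434 and 410 at 28 d. Col18a1 (chr10:77052178-77166548, minus strand), the endostatin precursor, measured 29.4, 30.7 and 25.9 CPM in sham, 316, 256 and 255 at 7 d, and 65.3, 83.4 and 146 at 28 d. Both genes kept the groups apart, with 28 d replicate 3 highest of its group for Col18a1. Col15a1 rose 2.45-fold at 7 d (log2 1.29 ± 0.09, edgeR adjusted p = 1.09e-06) and 1.54-fold at 28 d (adjusted p = 0.000374), and fell 1.59-fold in between (adjusted p = 0.000184). Col18a1 rose 9.61-fold at 7 d (3.26 ± 0.27, adjusted p = 3.28e-06) and 3.43-fold at 28 d (adjusted p = 0.00047), and fell 2.80-fold in between (adjusted p = 0.000811). The 2 multiplexins are separate proteins, and their ratio is given only as a comparison of related genes. Col15a1 counts were 8.50 to 10.6 times those of Col18a1 in sham, 2.13 to 2.57 times at 7 d and 2.80 to 5.79 times at 28 d (exact two-sided permutation p = 0.1 for each comparison, 0.136 adjusted).

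The transmembrane collagens and the remaining types were low and mostly did not pass. Col23a1 measured 4.01, 2.21 and 3.47 CPM in sham, 5.53, 6.34 and 4.24 at 7 d, and 4.71, 9.31 and 7.59 at 28 d. It rose 2.23-fold at 28 d (log2 1.15 ± 0.30, edgeR adjusted p = 0.00968), a call that ended with the sham libraries summed to 1 (adjusted p = 0.0856, range over 19 alternatives 0.00101 to 0.0856). At 7 d it was at 0.73 ± 0.30 and just missed the threshold (adjusted p = 0.0504), and it passed in 10 of 19 alternatives, among them those without sham replicate 1, 7 d replicate 3, 28 d replicate 1 or 28 d replicate 2 (range 0.00552 to 0.174). Col13a1, at 0.664 to 2.23 CPM, passed in no comparison (adjusted p = 0.957, 0.679 and 0.709). Col17a1 had 30 counts in all libraries and Col25a1 had 47, and neither was tested.

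Col28a1, a type VI-like collagen of peripheral nerve, measured 3.05, 3.13 and 1.52 CPM in sham, 5.0, 5.64 and 6.26 at 7 d, and 3.39, 4.16 and 3.36 at 28 d. It rose 2.20-fold at 7 d (log2 1.14 ± 0.26, edgeR adjusted p = 0.0028). Its 28 d difference from sham was 0.50 (adjusted p = 0.133), and that from 7 d was −0.63 (adjusted p = 0.0523). The latter passed in 6 of 19 alternatives, among them DESeq2 (adjusted p = 0.0403) and the edgeR fit without sham replicate 3 (adjusted p = 0.0149, range 0.0149 to 0.398). The 6 Schwann cell markers summed to 14.7 to 21.1 CPM in sham, 27.6 to 33.8 at 7 d, and 20.2, 26.2 and 252 in 28 d replicates 1, 2 and 3. Without Mbp the sums were 12 to 16.2, 9.62 to 10.3 and 10.6 to 144 CPM in the same order of groups. Of the 5 tested 2 rose and 2 fell at 7 d (median log2 change −0.55), where 39% of all genes rose and 35.4% fell. The part of these markers in the Col28a1 level was not tested. Col26a1 measured 0.785, 0.828 and 0.761 CPM in sham, 0.962, 0.693 and 0.626 at 7 d, and 0.465, 0.248 and 0.290 at 28 d, the only member with all 28 d hearts below all others. It fell 2.35-fold at 28 d against sham (adjusted p = 0.0208) and 2.26-fold against 7 d (adjusted p = 0.0194). Against sham it did not pass without sham replicate 2, 28 d replicate 2 or 28 d replicate 3, nor in 4 other alternatives (range over 18 alternatives 0.0131 to 0.103). Against 7 d it did not pass without 7 d replicate 1, 28 d replicate 2 or 28 d replicate 3, nor with DESeq2 or voom (range 0.0124 to 0.0976).

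Seen as a whole, the make-up of the non-fibrillar collagen RNA changed while its amount rose. Of all counts these genes took 0.285 to 0.292% in the sham group, 1.14 to 1.22% in the 7 d group and 0.430 to 0.524% in the 28 d group. The 11 fibrillar collagens took 0.131 ± 0.003% (SD, n = 3), 4.34 ± 0.583% and 0.645 ± 0.219% in the same order. To add levels of different genes, CPM were divided by kilobases of exon, taken over all annotated exons of a gene. Levels and shares per kilobase depend on that length. In sham Col6a1 and Col6a2 had means of 192 and 196 CPM but 43.9 and 23.6 per kilobase, at lengths of 4.38 and 8.33 kb. On this scale the non-fibrillar genes summed to 476 ± 4.44 in sham, 1548 ± 47.2 at 7 d and 668 ± 64.7 at 28 d. The fibrillar genes summed to 169 ± 3.72, 4452 ± 677 and 670 ± 189. The non-fibrillar share of the collagen level per kilobase was 73.9 ± 0.247% in sham, 26.0 ± 2.75% at 7 d and 50.5 ± 7.68% at 28 d, and the sham and 7 d ranges did not meet.

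Within the non-fibrillar genes, type IV supplied 70.3 ± 0.220% of the level per kilobase in sham, 43.7 ± 1.67% at 7 d and 48.1 ± 6.08% at 28 d (SD, n = 3). Type VI supplied 16.3 ± 0.126%, 21.7 ± 1.48% and 25.6 ± 3.69%, and type VIII 1.48 ± 0.072%, 11.4 ± 1.47% and 6.01 ± 0.880%. Type XIV went from 1.08% to 7.86% and 4.73%, type XVI from 0.575% to 4.01% and 1.88%, and type XV from 8.74% to 6.58% and 9.63%. Within type IV, the Col4a1 and Col4a2 chains made up 96.2 ± 0.258% in sham and 95.8 ± 0.700% at 7 d. At 28 d they made up 92.5, 92.3 and 87.2% in the 3 hearts, below every sham heart. The Col4a5 and Col4a6 chains made up 3.03 ± 0.224% in sham, 3.97 ± 0.645% at 7 d and 6.28, 6.53 and 11.9% at 28 d. The highest of these was again replicate 3. By contrast the Col4a1 to Col4a2 count ratio overlapped in all groups, at 1.32 to 1.37 in sham, 1.30 to 1.36 at 7 d and 1.32 to 1.40 at 28 d (exact two-sided permutation p = 0.7, 0.7 and 0.4).

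**Figure D4:**
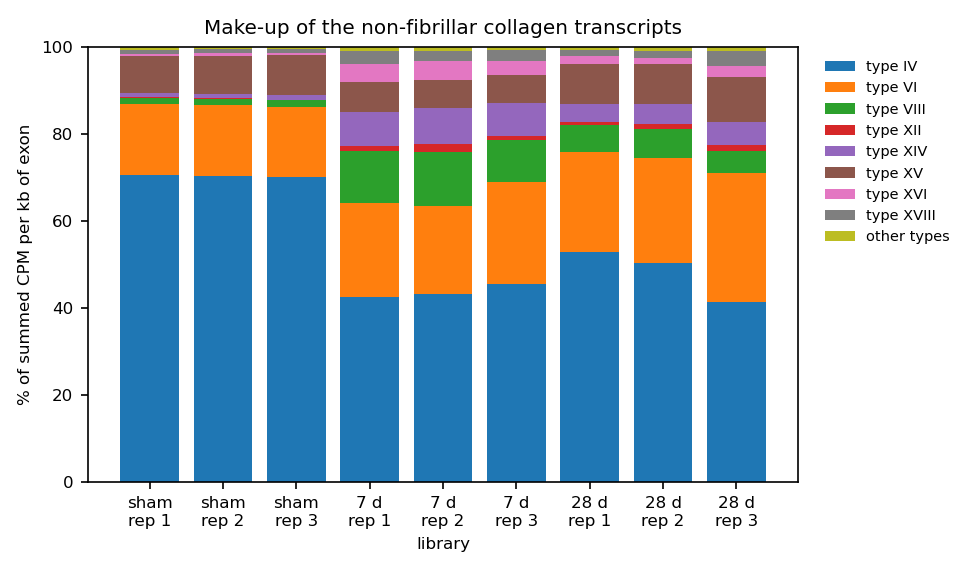
Share (%) of the summed non-fibrillar collagen level, in CPM per kilobase of exon, taken by each collagen type in each of the 9 libraries. Type IV fills about 70% of each sham bar and a smaller part of every bar at 7 d and 28 d, where types VI, VIII and XIV take more.

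**Figure D5:**
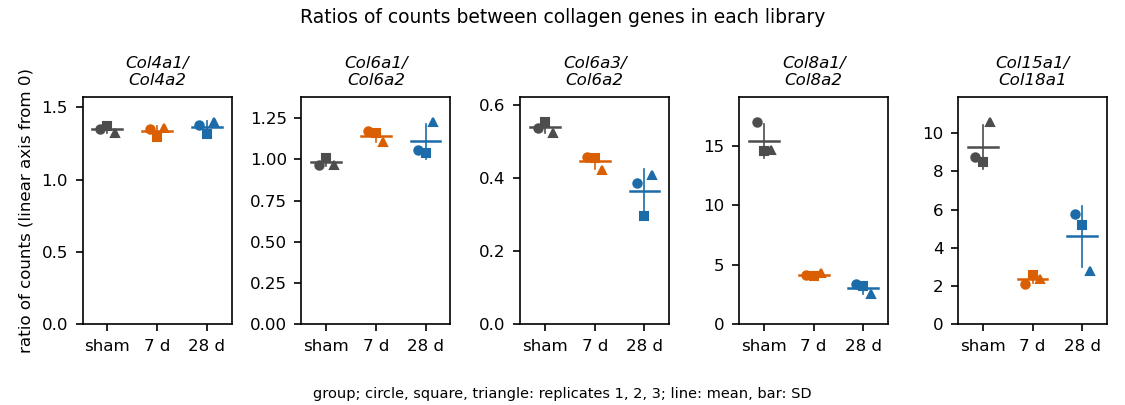
Ratio of counts of paired collagen genes in each library of the 3 groups (linear axes from 0; symbols mark replicates, lines are means and bars SD). The Col8a1 to Col8a2 and Col15a1 to Col18a1 ratios drop after infarction without overlap with sham, while the Col4a1 to Col4a2 ratio overlaps in all groups.

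Other genes of the same structures are given for comparison. Of 21 basement membrane genes 20 were tested, and at 7 d 10 rose and 4 fell (median log2 change 0.30), at 28 d 3 rose and 5 fell (−0.04), and from 7 d to 28 d 6 rose and 8 fell (−0.26). The shares that passed, 70%, 40% and 70%, stand beside 74.4%, 55.1% and 55.2% of all genes. Sparc, a collagen-binding glycoprotein, went from 780 ± 26.8 CPM in sham to 7445 ± 577 at 7 d (SD, n = 3), a 9.55-fold rise, and fell 3.60-fold by 28 d. Smoc1, a relative of Sparc, rose 3.90-fold at 7 d and 4.25-fold at 28 d. Lamb3 fell 4.26-fold at 7 d and 1.71-fold at 28 d, Dag1 (dystroglycan) fell 1.78-fold at 7 d, and Lamb1 fell 1.69-fold at 28 d and 2.38-fold between the times. From 7 d to 28 d Lamb3 rose 2.5-fold. Lamc3 passed there at 2.81 on the log2 scale (edgeR adjusted p = 0.044), but it measured 1.99, 2.42 and 39.6 CPM at 28 d against 0.77, 2.18 and 3.32 at 7 d, and without 28 d replicate 3 the change was 0.08 (adjusted p = 0.903, range over 19 alternatives 0.0152 to 0.903). The Lamc3 call also ended without any single sham or 7 d library.

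All 12 collagen receptor genes passed at 7 d, 10 higher and 2 lower (median log2 change 1.62), and again 10 and 2 at 28 d (1.26). From 7 d to 28 d 2 rose and 5 fell (−0.19), a share of 58.3% where 55.2% of all genes passed. At 7 d and 28 d against sham the shares over all genes were 74.4% and 55.1%. Itga11, a fibroblast integrin chain for fibrillar collagen, rose 15.6-fold at 7 d (3.96 ± 0.17, edgeR adjusted p = 8.91e-08) and fell 5.18-fold afterwards. Lair1, an inhibitory collagen receptor of immune cells, rose 11.1-fold at 7 d and fell 6.02-fold afterwards, and 7 macrophage markers summed to 430 to 473 CPM in sham, 3354 to 4356 at 7 d and 685 to 1139 at 28 d. Their part in the Lair1 level was not tested. At 28 d Itga2 was 8.97-fold and Itga10 4.24-fold above sham, the latter 2.73-fold without 28 d replicate 3. Itga1, a chain of a collagen IV receptor, fell 1.48-fold at 7 d (not called without 7 d replicate 1, edgeR adjusted p = 0.0578, range over 19 alternatives 0.000655 to 0.201) and 1.74-fold at 28 d, and Antxr2, a receptor for collagen VI, fell 2.35-fold and 1.57-fold. Between the times Itga2 rose 1.71-fold and Antxr2 1.5-fold. Antxr1, also in this list, went the other way from Antxr2. It rose 11.0-fold at 7 d and 4.18-fold at 28 d, and fell 2.64-fold between the times.

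Of 12 genes for collagen hydroxylation, glycosylation, folding and crosslinking, 10 rose and 2 fell at 7 d (median 1.19), 6 rose and 2 fell at 28 d (0.45), and 3 rose and 8 fell from 7 d to 28 d (−0.80). The shares that passed were 100%, 66.7% and 91.7%, beside 74.4%, 55.1% and 55.2% of all genes. P4ha3, a prolyl hydroxylase subunit, rose 56.4-fold at 7 d and 4.43-fold at 28 d and fell 12.7-fold in between. Loxl2, a crosslinking enzyme, rose 7.43-fold at 7 d, and P3h2, which hydroxylates collagen IV, rose 3.34-fold at 28 d and 1.51-fold from 7 d to 28 d. The latter call ended without 7 d replicate 1 or 28 d replicate 2 (edgeR adjusted p of 0.0625 and 0.0698, range over 19 alternatives 0.0011 to 0.0698). Colgalt2, a collagen galactosyltransferase, fell 3.96-fold at 7 d and 1.94-fold at 28 d and rose 2.04-fold between them, and P4ha2 fell 1.18-fold at 7 d (0.10 on the log2 scale with scaling by library size alone), a call that ended without sham replicate 1 or 3 or 7 d replicate 3 (edgeR adjusted p of up to 0.0673, range over 19 alternatives 0.00359 to 0.268). Pxdn, the peroxidasin that crosslinks collagen IV, rose 1.86-fold at 7 d against sham. At 28 d it was 1.71-fold lower than in sham and 3.18-fold lower than at 7 d. For reference, the 11 fibrillar collagen genes had a median log2 change of 4.72 at 7 d and 1.78 at 28 d against sham, and of −2.62 between the times.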

How the data were processed

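The values are whole-number read counts per gene symbol, deposited by the authors without normalization. Trim Galore, STAR, featureCounts and the mm10 build are named in the submitters' processing notes, without versions. Not given in the sources used here are the annotation, the strand setting and how multi-mapping reads were counted. Libraries were made from total RNA, per the labels' protocols. Groups came from the sample titles.

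Counts were tested as deposited with edgeR 4.0.16 in R 4.3.3. The filter was filterByExpr with the groups given (at least 10 counts, total of at least 15), and 14347 of 24964 symbols passed it. TMM factors lay between 0.869 and 1.13. All 9 libraries entered 1 model of group means, and contrasts were tested by quasi-likelihood F tests with Benjamini-Hochberg adjustment over the 14347 genes. SE is the absolute log2 change over the square root of F. Exon lengths and gene coordinates are from GENCODE M21 on GRCm38, and promoter windows and head-to-head distances from RefSeq on GRCm38.p6. Ratios of chains were tested by exact permutation over samples. Intervals of ratios against few counts cover counting error only. Floors of 3 counts cover the counting error of the sham group only.

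On data simulated from these libraries with 14347 genes, 77% of 2-fold and 97% of 4-fold changes were called at 7 d against sham, 68% and 95% at 28 d against sham, and 77% and 96% between the times. Each comparison had 100 changed genes per fold size, in random directions, and a spread that was the same in every group. False calls numbered 14, 9 and 10 among 14147 unchanged genes. In the data 55.1% to 74.4% of genes passed, and sham libraries varied less than infarcted ones. The simulated shares therefore need not hold for the data.

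The members, gene lists and alternatives were chosen with earlier results of these data known. Members were given in every library where their mean CPM was at least 10 or a called log2 change reached 2, and Col23a1, Col26a1, Col28a1, Col6a4 and Col9a1 were added after their values were seen. Of each partner list the 2 largest rises and falls were named, except 1 result that is not reported here. The alternatives used DESeq2 1.42.0, limma 3.58.1 (voom), other scalings and filters, the replicate number as a block, sham summed to 1 library, and samples left out. Libraries with over 100 CPM of Adipoq were left out in 1 alternative.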

Additional observations from a re-analysis of the deposited data

Results flagged for a closer look

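For 21 of the 28 tested genes the change after infarction differed between 7 d and 28 d by the direct test of 28 d against 7 d (edgeR's quasi-likelihood test, adjusted over all genes). Since both times were set against the same sham libraries, the log2 difference between the times is the difference of the 2 changes. Its sign gives the direction from 7 d to 28 d.

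The 4 genes that rose between the times had differences of 1.42 for Col4a3 (−0.68 at 7 d and 0.74 at 28 d against sham), 1.07 for Col4a4 (−1.03 and 0.04), 1.71 for Col6a6 (−2.04 and −0.33) and 2.78 for Col22a1 (−0.30 and 2.48). Col4a3 is the only member called lower at 7 d and higher at 28 d, and both of those calls were close to the threshold.

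The other 17 genes were lower at 28 d than at 7 d. Among network collagens the differences were −1.13 for Col4a1, −1.15 for Col4a2, −2.27 for Col8a1, −1.83 for Col8a2 and −5.46 for Col10a1. Among the beaded and anchoring genes they were −1.02 for Col6a1, −0.97 for Col6a2, −1.28 for Col6a3 and −1.76 for Col7a1. Among FACIT genes they were −2.45 for Col9a2, −1.43 for Col9a3, −1.65 for Col12a1, −1.95 for Col14a1 and −2.34 for Col16a1. The multiplexins gave −0.67 for Col15a1 and −1.49 for Col18a1, and Col26a1 gave −1.18. Over all genes 55.2% passed in the same comparison.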

How the results depend on the processing

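Each of the 84 log2 changes was recomputed under 18 or 19 alternatives, 1584 values in all. Of these 1493 kept their direction and their side of the threshold, 35 no longer passed, 23 newly passed and 33 changed sign, none of the last from a change that had passed. The calls that ended or began with a single library are given beside the genes above. Members higher numbered 19 to 22 at 7 d, 13 to 19 at 28 d and 3 to 6 between the times, with 13 at 28 d where sham was summed to 1 library. Over all genes, summing sham took the number higher at 28 d from 4233 to 1888. The same alternative left 1 member lower at 7 d. At 28 d against sham 0 members were lower with DESeq2, with voom, under the stricter filter, with sham summed to 1 library and without the Adipoq-rich libraries, and 0 to 1 with a library left out. At an unadjusted p under 0.05 the count was 1 (Col26a1) with DESeq2, with voom, with sham summed and without sham replicate 2 or 28 d replicate 2, and 2 (Col26a1 and Col6a6) without the Adipoq-rich libraries. It was 0 under the stricter filter, which Col26a1 did not pass.

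The sign changes were these, and the cause was not tested. With scaling by library size alone the 7 d log2 changes were 0.25 for Col20a1, 0.036 for Col22a1, 0.31 for Col13a1 and 0.27 for Col26a1, and those at 28 d against sham were 0.11 for Col4a1, 0.10 for Col4a2, 0.15 for Col10a1 and 0.024 for Col13a1. Without the Adipoq-rich libraries, which leaves 1 library at 28 d that is assumed to vary like the others, Col26a1 was at 0.062 at 7 d. At 28 d against sham Col4a1 was then at 0.074, Col4a2 at 0.11, Col10a1 at 1.01 and Col13a1 at 0.43, and between the times Col4a6 was at −0.22 and Col13a1 at 0.57. The log2 Col4a1 to Col4a2 ratio was then −0.032 at 28 d against sham and −0.00485 against 7 d. With voom Col4a4 was at −0.027 and Col10a1 at 0.026 at 28 d against sham. With 1 library left out, the 7 d changes ranged from −0.16 to 0.018 for Col20a1, from −0.20 to 0.22 for Col13a1 and from −0.26 to 0.067 for Col26a1. Those at 28 d against sham ranged from −0.25 to 0.027 for Col4a1, from −0.29 to 0.031 for Col4a2, from −0.18 to 0.28 for Col4a4, from −1.30 to 3.58 for Col10a1 and from −0.74 to 0.087 for Col13a1. Between the times they ranged from −0.30 to 0.86 for Col4a6 and from −0.71 to 0.11 for Col13a1. The Col4a1 to Col4a2 ratio ranged from −0.028 to 0.0069 at 7 d and from −0.0018 to 0.041 at 28 d.

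The replicate numbers were not taken to pair the hearts, since the correlation of deviations between same-numbered libraries ranged from −0.0909 to 0.304. With the replicate block 20 members were higher and 3 lower at 7 d, 18 and 1 at 28 d, and 5 and 17 between the times, where Col6a5 passed in addition (1.68, adjusted p = 0.0247). Low totals limit the members below about 1 CPM, such as Col26a1 and Col9a3, more than the rest.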
